A study of Mus musculus with 3 samples.

Results

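Mature miRNAs named miR-297, miR-466, miR-467 or miR-669, with any letter, copy number or arm, formed a family chosen by name alone. The count table listed 44 such IDs among 627 mature miRNAs (7.02%), and they filled 313 of its 961 rows (32.6%). In mouse, most hairpins of this family lie side by side in an intron of Sfmbt2, an imprinted gene of a polycomb-group protein that is expressed from the paternal copy in the early embryo and placenta. The family belongs to rodents, and many of its hairpins are near-identical copies of each other. Each hairpin can give a mature miRNA from its 5′ arm (5p) and another from its 3′ arm (3p), and a miRNA finds target mRNAs mainly through its seed, bases 2 to 8.

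The miRNAs came from CD1 mouse ovaries labelled postnatal day 3, a time when oocytes leave their nests and are enclosed in primordial follicles. The ovaries had been collected from newborn mice and then cultured with 0, 10, or 100 μM of the plasticizer di (2-ethylhexyl) phthalate (DEHP). DMSO was the vehicle and was given alone at 0 μM. Ovaries were pooled, and 1 library was sequenced per dose. No replicate therefore exists, no p-value is given, and each ratio compares a pair of libraries. With 1 row per ID the totals were 5253367 counts at 0 μM, 5064602 at 10 μM and 5952274 at 100 μM. Counts were divided by median-of-ratios size factors of 1.38, 1.35 and 0.546, which gives normalized counts. A log2 ratio compares a pair of normalized counts, each with 0.5 added, and carries a 95% Clopper-Pearson interval of the split between both counts, which covers counting error only. Every one of the 627 miRNAs had at least 10 counts at 0 μM, while the lowest counts in the 10 and 100 μM libraries were 2 and 0. A member below 10 counts at 0 μM is therefore not seen here.

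The gonadal marker miR-202-5p had 30017, 39447 and 17952 normalized counts at 0, 10 and 100 μM, so the labelled tissue was visible in all 3 libraries. On this scale its other arm, miR-202-3p, went the opposite way, with 1171, 935 and 2012. The counts of miR-202-3p before scaling were 1614, 1261 and 1098, lowest at 100 μM. Both arms together made up 0.818%, 1.07% and 0.183% of all counts. The markers of germ cells and pluripotent cells, the miR-290 to miR-295 cluster, were all listed (11 of 11). Their summed level was 3697, 3146 and 10556 normalized counts, carried at 100 μM mainly by miR-292a-5p (638, 794 and 4868) and miR-294-3p (336, 266 and 2184). The most abundant at 0 μM, miR-293-3p, had 1095, 686 and 973, and 6 of the 11 were lower at 100 than at 0 μM. Both endothelial markers were listed and summed to 46170, 52252 and 9855 normalized counts, most of it miR-126a-3p with 39638, 44490 and 9105. Endothelial markers were thus lower at 100 μM, also as a share of all counts (1.21%, 1.39% and 0.0904%), while the germ-cell markers had no common direction, and their sum was higher on the normalized scale but not as a share (0.0970%, 0.0837% and 0.0968%). The part of these markers in the values of the family was not tested. In bulk ovary, fewer cells of a type and less RNA per cell cannot be told apart.

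The other marker lists were also read. Epithelial miRNAs (5 of 5 listed) summed to 6759, 7090 and 6172 normalized counts, a sum of unlike parts: miR-200a-3p had 3580, 2934 and 1381, miR-200b-3p 2569, 3154 and 4078, and miR-141-3p 114, 127 and 1.83. Red blood cell miRNAs (3 of 4) summed to 948, 1009 and 835, mostly miR-486a-5p, and leukocyte miRNAs (4 of 4) to 218, 187 and 130. Muscle miRNAs (3 of 4) summed to 284, 214 and 480, mostly miR-1a-3p. Of the neuronal pair, miR-9-5p had 512, 497 and 660, and the liver marker miR-122-5p had 16.0, 10.4 and 14.7. As a share of all counts, each of these lists was lowest at 100 μM. The epithelial share was 0.177%, 0.189% and 0.0566%, and that of red blood cells 0.0249%, 0.0269% and 0.00766%. For muscle it was 0.00744%, 0.00571% and 0.00440%, and for miR-9-5p 0.0134%, 0.0132% and 0.00605%.

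By number, the family held 5 IDs of miR-297, 18 of miR-466, 8 of miR-467 and 13 of miR-669. By arm, 25 IDs were 5p, 17 were 3p, and 2, miR-466g and miR-466k, carried no arm in their names. A row of the table stands for a mature miRNA and a precursor, and 28 of the 44 IDs filled several rows. In 10 of these the rows differed in their counts. The clearest case was miR-466i-5p, with 80 rows and 64 distinct sets of counts. In its 16 rows with 164 counts at 0 μM, the 4 values seen at 10 μM and the 3 values seen at 100 μM occurred in all 12 combinations. For each ID the row of highest total was used, and in all 44 this row also held the highest count of every library.

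Several IDs had the same count as another ID in all 3 libraries. This held for 20 of the 44 members (45.5%), in 9 groups, against 13 of the 583 miRNAs outside the family (2.23%). The groups were miR-297a-3p, miR-297b-3p and miR-297c-3p; miR-466a-3p and miR-466e-3p; miR-466b-3p, miR-466c-3p and miR-466p-3p; miR-466b-5p and miR-466o-5p; miR-466d-5p and miR-466n-5p; miR-467a-3p and miR-467d-3p; miR-467a-5p and miR-467b-5p; miR-669a-3p and miR-669o-3p; and miR-669a-5p and miR-669p-5p. The 44 IDs thus held 33 distinct sets of counts, called count profiles here. IDs of a shared profile cannot be told apart and are not separate measurements, so counts of members are given with the number of profiles behind them.

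The hairpins of the family were located by name in the GENCODE M21 annotation, which uses mm10, the build named in the submitters' processing notes. It holds 81 hairpins with these numbers, of which 71 lie inside Sfmbt2 (chr2:10370510-10595253, plus strand). All 71 are on the plus strand between positions 10466663 and 10518279, a span of 51617 bases, and inside a single intron (10461473 to 10523944), which is intron 10 of transcript Sfmbt2-201. Of the 44 members, 41 had at least 1 hairpin of their name in this intron. The hairpins of miR-466i (chr13:17747473-17747593) and miR-466k (chr3:85467377-85467498) lie elsewhere, both on the plus strand, and miR-466a had no hairpin of its exact name. Inside Sfmbt2 the annotation also has 48 other miRNA genes, none under a name of the count table.

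The order of the hairpins repeats along the intron. A miR-467 hairpin followed by a miR-466 and then a miR-669 hairpin occurs 11 times between positions 10473931 and 10503877, and within these runs the miR-466 hairpin starts 282 to 292 bases after the miR-467 hairpin. Neighbouring miR-467 hairpins start a median of 2450 bases apart. miR-467a-5p and miR-467b-5p filled 11 rows each, beside 10 hairpins of miR-467a and 1 of miR-467b, while miR-466i-5p filled 80 rows with 1 annotated hairpin.

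RefSeq mature sequences (GRCm38.p6) were matched by name for 529 of the 627 miRNAs and for 1 of the 44 members, miR-466k. It is shown with its seed in capitals. The 3p arm of the miR-466i hairpin, which has no counts in the table, is set beside it because the 5p arm of that hairpin was among the lowest members at 100 μM.
miR-466k: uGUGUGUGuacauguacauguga
miR-466i-3p: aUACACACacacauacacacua
Mir466k hairpin: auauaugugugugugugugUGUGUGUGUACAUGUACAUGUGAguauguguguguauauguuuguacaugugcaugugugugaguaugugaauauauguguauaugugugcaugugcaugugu
The last line is the whole hairpin with the mature miRNA in capitals. Stretches of alternating U and G make up much of it, while the miR-466i 3p arm is made mostly of alternating C and A. Of the 528 miRNAs outside the family with a sequence, 0 shared the seed of miR-466k.

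Most members were of low abundance. The median of the mean normalized count was 77.3 over the 37 members that reached a mean of 10, against 244 over all 587 miRNAs that did. The 37 members were 21 5p IDs, 15 3p IDs and miR-466g, and held 27 profiles. The 7 below the minimum were miR-297a-5p, miR-466d-5p, miR-466e-5p, miR-466f-3p, miR-466k, miR-466n-5p and miR-669p-3p. The most abundant members were miR-467a-5p and miR-467b-5p, at rank 127 among all 627 miRNAs. Their shared profile was 1739 normalized counts at 0 μM, 1543 at 10 μM and 4734 at 100 μM. Of all counts in the distinct profiles of the family, this profile alone held 40.2% (95% interval 38.9% to 41.4%) at 0 μM, 40.0% (38.7% to 41.4%) at 10 μM and 64.0% (62.5% to 65.5%) at 100 μM. It stood far above the next member, miR-669c-5p, with 590, 582 and 431 normalized counts.

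The question of the comparison between 100 and 0 μM was which miRNAs differ after the higher dose. In the family, 3p arms were higher and most 5p arms lower by the sign of the log2 ratio. The interval was above 0 for 11 of 15 3p members, and below 0 for 8 and above 0 for 2 of 21 5p members. The 15 3p members held 8 profiles and the 21 5p members 18. The 11 were miR-466d-3p and the shared 3p profiles of miR-297a, miR-466a, miR-466b and miR-467a, so fewer profiles stand behind them. The 2 were the shared profile of miR-467a-5p and miR-467b-5p. Outside the family it was above 0 for 113 of 259 3p arms and below 0 for 108 of 249 5p arms. However, with total counts as library sizes 36 of the 37 members past the minimum were lower, and with library sizes without the 10 most abundant miRNAs 25 of them. Among the 5p arms, miR-467a-5p and miR-467b-5p stood apart as the highest. A change of scaling moves all members by about the same amount, so it cannot test this order. Over all 587 miRNAs, 61 (10.4%) were above a log2 ratio of 2 and 55 (9.37%) below -2. Of the 37 members 0 were above 2 and 1, miR-669b-5p, was below -2. At a log2 ratio of 1, 157 of all miRNAs (26.7%) were higher and 151 (25.7%) lower, beside 11 members (29.7%, 6 profiles) higher and 5 members (13.5%, 5 profiles) lower. The share of higher members was thus near that of all miRNAs. The median log2 ratio was 0.24 over the members and -0.01 over all miRNAs. These directions rest on the scaling. With total counts the median over all miRNAs shifted by -1.52 and with library sizes without the 10 most abundant miRNAs by -0.77, and the members beyond a log2 ratio of 1 became 0 higher and 22 lower, and 0 higher and 13 lower. Under TMM, upper-quartile factors and factors from miRNAs outside the family this median shifted by 0.08 or less. Ratios are therefore best read against the median of all miRNAs, above which the median of the members stood by 0.25. A change of scaling moves both medians about alike, so it cannot test this distance. This distance depends on which members are counted. The medians of members and of all miRNAs were 0.07 and -0.02 with each profile taken once, 0.08 and -0.01 with summed rows, and 1.12 and 0.11 at a mean of at least 100.

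**Figure D1:**
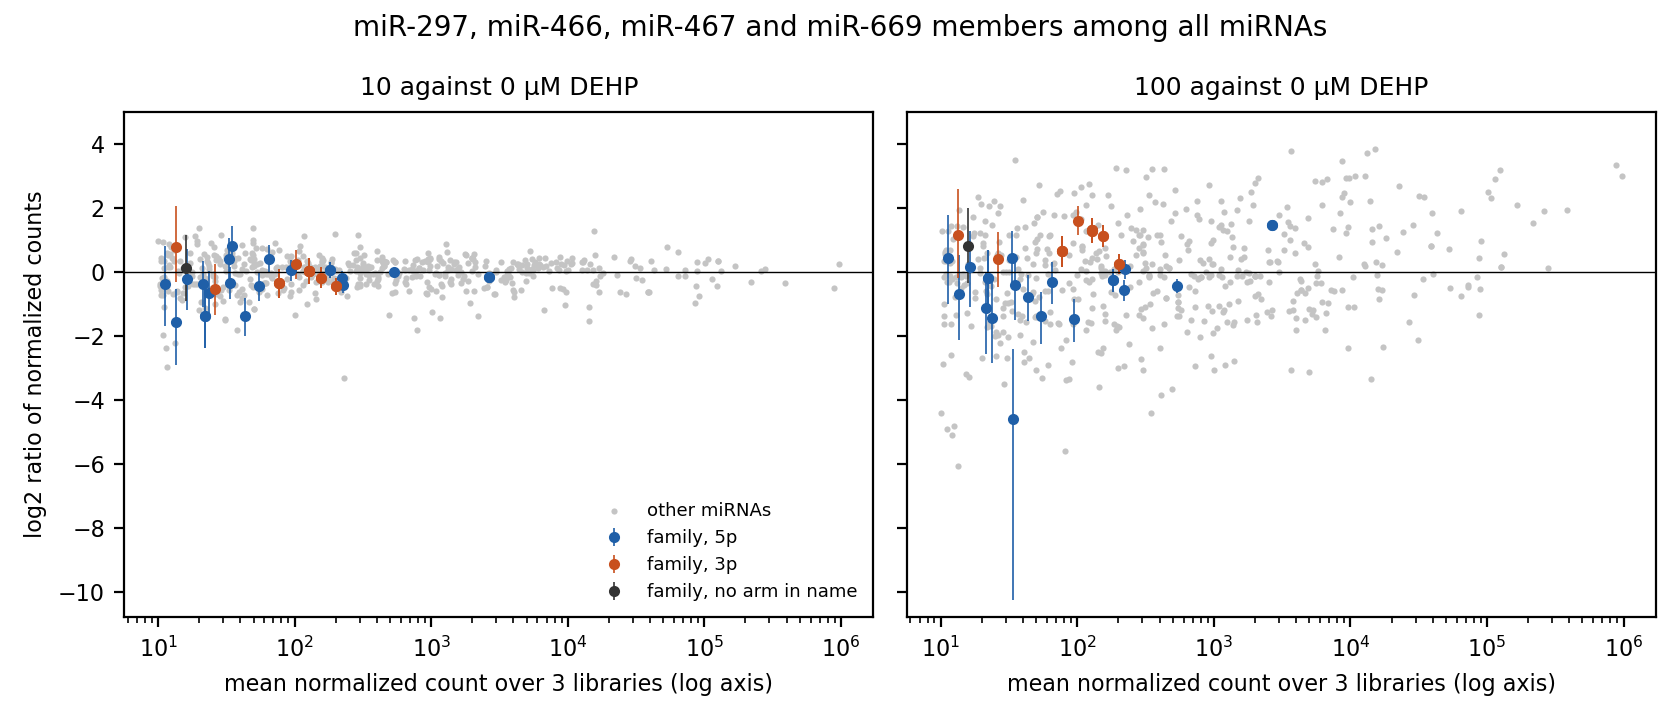
Log2 ratio of normalized counts against the mean normalized count over the 3 libraries (log axis) for 587 miRNAs, at 10 against 0 μM (left) and 100 against 0 μM (right) DEHP. Grey points are miRNAs outside the family, coloured points are the 37 members by arm with 95% counting intervals, and IDs of a shared profile fall on each other. At 100 μM the 15 members of 3p arms lie above 0 with median-of-ratios scaling, while 14 of them lie below it with total counts and 6 with library sizes without the 10 most abundant miRNAs.

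Members of 3p arms mostly lay above those of 5p arms, but their ranges overlapped. All 15 members of 3p arms (8 profiles) were above the median of all miRNAs at 100 μM, and 15 of the 21 members of 5p arms (13 of 18 profiles) were below it. Outside the family, 138 of 259 3p arms (53.3%) were above this median and 139 of 249 5p arms (55.8%) below it. The median log2 ratio was 1.12 for the 3p members and -0.33 for the 5p members, against 0.14 and -0.16 for 3p and 5p arms outside the family. With total counts both medians of the members were negative, at -0.40 for 3p and -1.83 for 5p. With the rows of each ID summed, 17 3p members passed the minimum and 2 of them had a negative log2 ratio.

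The 6 members of miR-466 3p arms past the minimum held 3 profiles. The shared profile of miR-466b-3p, miR-466c-3p and miR-466p-3p was 85.6, 87.5 and 210.7 normalized counts at 0, 10 and 100 μM. That of miR-466a-3p and miR-466e-3p was 87.1, 87.5 and 210.7. The counts themselves hardly differed between libraries (118, 118 and 115 for the former profile), so the higher normalized level at 100 μM comes with the smaller size factor of that library. The log2 ratios of these profiles at 100 against 0 μM were 1.29 (0.92 to 1.68) and 1.27 (0.89 to 1.66). The largest ratio in the family was that of miR-466d-3p, at 58.8, 69.0 and 177.7 normalized counts with a log2 ratio of 1.59 (1.16 to 2.04). With total counts it was 0.08 (-0.36 to 0.52), an interval that spans 0, and the other 3p profiles of miR-466 past the minimum had log2 ratios of -0.22 and -0.24.

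For miR-467, the shared 5p profile of miR-467a-5p and miR-467b-5p had a log2 ratio of 1.44 (1.36 to 1.53) at 100 against 0 μM, and of -0.07 with total counts. It was the most precisely measured ratio of the family. The 3p profile of miR-467a-3p and miR-467d-3p had 114.6, 100.9 and 249.2 normalized counts and a log2 ratio of 1.12 (0.78 to 1.46), or -0.40 with total counts. The other 5p members of miR-467 did not share this level. miR-467c-5p had 240.2, 180.3 and 252.8 normalized counts, with a log2 ratio of 0.07 (-0.22 to 0.36). miR-467e-5p had 261.2, 228.5 and 174, with a log2 ratio of -0.58 (-0.93 to -0.26). miR-467d-5p had 26.8, 35.6 and 36.6, with a log2 ratio of 0.44 (-0.41 to 1.27), an interval that overlaps those of miR-467c-5p and miR-467e-5p. The shared 5p profile thus differed from the other letters by more than counting error, as did miR-467c-5p from miR-467e-5p.

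The 3p profile of miR-297a-3p, miR-297b-3p and miR-297c-3p had 69.7, 54.2 and 108.1 normalized counts and a log2 ratio of 0.63 (0.14 to 1.12), which was negative with total counts (-0.88). The 5p arms of miR-297 were near the limit of detection. miR-297a-5p had 10, 8 and 2 counts, a log2 ratio of -0.90 (-4.22 to 1.24) at 100 against 0 μM. miR-297b-5p, which passed the minimum, had 15, 11 and 8 counts, a log2 ratio of 0.41 (-1.02 to 1.76), or -1.04 with total counts. It passed through its 100 μM value, since the other normalized values have a mean below 10, so its ratio is not read as a difference.

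All 9 members of miR-669 5p arms (8 profiles) had a negative log2 ratio at 100 against 0 μM, from -4.60 to -0.27, and none changed sign under any of the scalings. The interval was below 0 for 5 of them. The lowest was miR-669b-5p, with 77, 59 and 1 counts, or 55.9, 43.8 and 1.83 normalized counts. Its log2 ratio was -4.60, with an interval from -10.25 to -2.41. It was the single member whose whole interval lay beyond -2. miR-669e-5p followed with 35.6, 22.3 and 12.8 normalized counts and a log2 ratio of -1.44 (-2.86 to -0.32), and miR-669d-5p with 77.6, 56.4 and 29.3 and a log2 ratio of -1.39 (-2.26 to -0.64). The abundant miR-669c-5p was lower by less, with a log2 ratio of -0.45 (-0.67 to -0.24). In the 3p arms, the shared profile of miR-669a-3p and miR-669o-3p had 206.8, 150.6 and 243.7 normalized counts and a log2 ratio of 0.24 (-0.07 to 0.54), or -1.28 with total counts.

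The lowest miR-669 5p members shared a place in the intron, a grouping chosen after their values were seen. The first 12 hairpins, from 10466663 to 10472623, lie before the first miR-467 hairpin. The miR-669 members whose hairpins all lie there, miR-669b-5p, miR-669d-5p, miR-669e-5p, miR-669f-5p and miR-669l-5p, had a median log2 ratio of -1.39 at 100 against 0 μM, and 4 of the 5 were below -1. The other 4 miR-669 5p members (3 profiles) had a median of -0.30 and a range from -0.45 to -0.27. Of all 587 miRNAs 25.7% were below -1. The split at -1 rests on the scaling, since all 9 miR-669 5p members were below -1 with total counts. The same held with library sizes without the 10 most abundant miRNAs. miR-669l-5p was the member of the first stretch above -1, with a log2 ratio of -0.43 (-1.50 to 0.52), so the stretches overlap in this range. The intervals of miR-669d-5p (-2.26 to -0.64), miR-669e-5p (-2.86 to -0.32) and miR-669f-5p (-2.58 to -0.0046) also overlapped that of miR-669c-5p (-0.67 to -0.24) in the other stretch. Only miR-669b-5p, with 1 count at 100 μM, lay apart. The split is thus mostly within counting error. The miR-669f hairpin (chr2:10467229-10467349) gave a 5p arm at -1.15 and a 3p arm at 0.41. The miR-466o hairpin lies in the first stretch too, and miR-466o-5p, whose profile is shared with miR-466b-5p, was at -0.21 (-1.20 to 0.69).

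**Figure D2:**
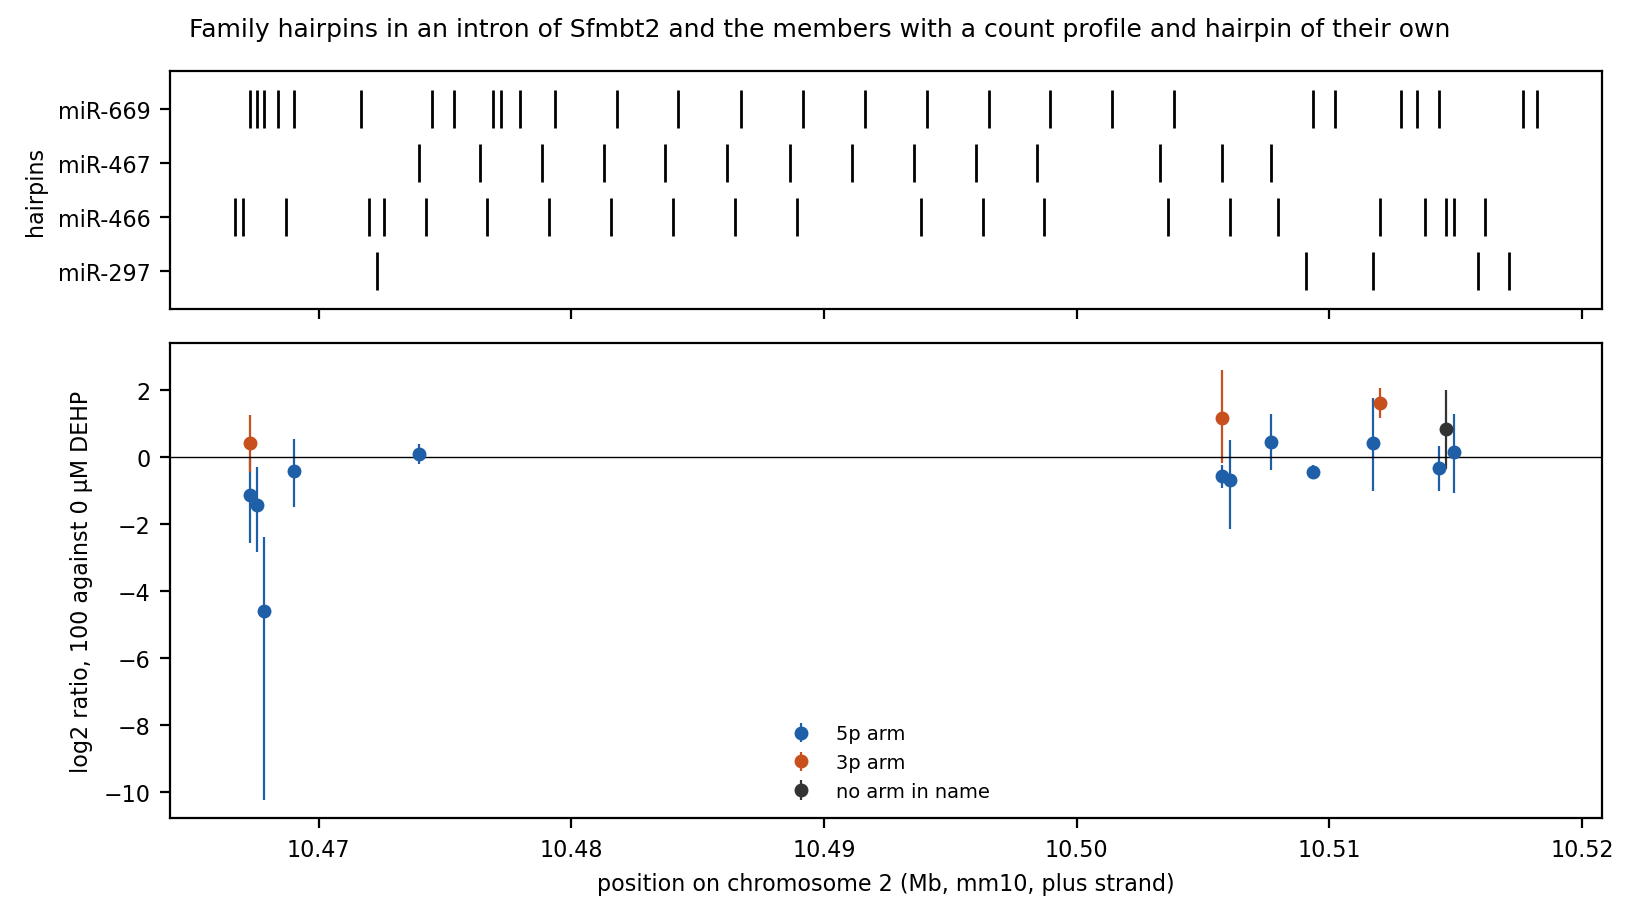
Upper panel, positions of the 71 family hairpins inside Sfmbt2 on chromosome 2 (Mb, mm10), a line per number. Lower panel, log2 ratio at 100 against 0 μM DEHP, with 95% counting intervals, of the 16 members with a mean of at least 10, a single hairpin there and a count profile of their own. The lowest value is miR-669b-5p at -4.60, near the start of the cluster, and with total counts the points move down by about the shift of all miRNAs, -1.52.

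By name, miR-466i-5p was the member past the minimum with its hairpin outside the Sfmbt2 cluster. With 80 rows beside 1 annotated hairpin, its reads cannot be placed at that hairpin. miR-466i-5p had 119.0, 122.4 and 42.1 normalized counts. Its log2 ratio at 100 against 0 μM was -1.49 (-2.20 to -0.86), the second lowest of the family. Over its 80 rows this ratio lay between -2.30 and -0.78. These rows recombine 7, 8 and 6 values at 0, 10 and 100 μM, so their common sign is not separate support. The ratio of the row used was negative under every scaling.

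Arms of the same hairpin name were compared next, since the difference between arms of a library does not depend on the scaling. Both arms were listed for 14 hairpin names and passed the minimum for 10. In 9 of these 10 the log2 ratio at 100 against 0 μM was higher for the 3p arm. The intervals of the arms did not overlap in miR-466b, miR-466c and miR-467e. They were also apart in miR-466p, but its 5p arm passed the minimum through its 0 μM value. The 5p arm of miR-297b passed it through its 100 μM value. The pairs of miR-466p and miR-297b are therefore counted but not read as differences. The median difference, 3p minus 5p, was 1.09 in the family, with a range from -0.33 for miR-467a to 2.08 for miR-466c. Outside the family, the 3p arm was higher in 91 of 164 hairpins (55.5%), with a median difference of 0.31. How many of these 164 had intervals apart was not counted. Since most of the 3p profiles are shared between names, these 10 pairs are not independent of each other. In miR-467e and miR-669f each arm had a profile of its own. Elsewhere a shared profile can hold reads from hairpins of other names, so a pair need not compare arms of the same hairpins.

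At 10 against 0 μM the arms showed no common direction, since the log2 ratio was higher for the 3p arm in 5 of the 10 pairs and the median difference was 0.01. The ratio of 3p to 5p counts of a name can be read in each library, though shared profiles can pool several hairpins. In order of dose, miR-466c had 1.28, 3.47 and 5.48. For miR-466b the ratio was 2.88, 7.87 and 8.21. For miR-466p it was 4.07, 13.1 and 16.4, but its 5p arm passed the minimum through its 0 μM value, so this ratio is not read. In miR-466b and miR-466c the ratio was higher already at 10 μM, with the intervals of both arms apart at 10 against 0 μM. It was lower at 10 μM for miR-467d (4.27, 2.83 and 6.80), miR-669a (1.09, 0.766 and 1.55), miR-669f (0.9, 0.8 and 2.71) and miR-669o (3.31, 1.83 and 4.93). Of these, miR-669o was the name with the intervals of both arms apart. For miR-467e it was 0.0306, 0.0617 and 0.105, with the 5p arm far more abundant in every library, while for miR-467a it was 0.0659, 0.0654 and 0.0526. miR-466c was the hairpin name whose arms had opposite signs with both intervals apart from 0 at 100 against 0 μM. The log2 ratios were -0.79 (-1.55 to -0.10) for 5p and 1.29 for 3p. The 3p profile is shared with miR-466b-3p and miR-466p-3p, so it cannot be placed at the miR-466c hairpins alone. With total counts both arms were negative.

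**Figure D3:**
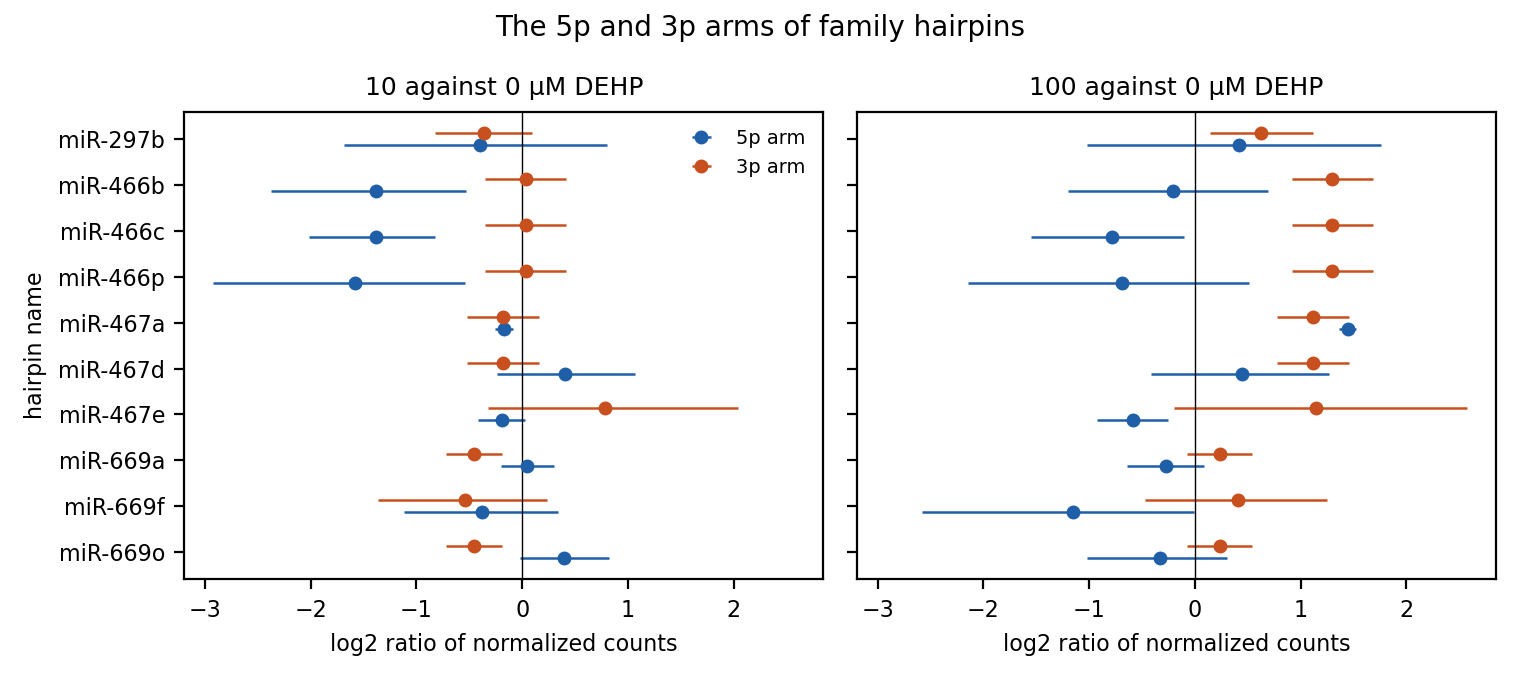
Log2 ratio of normalized counts with 95% counting intervals for the 5p (blue) and 3p (orange) arms of the 10 hairpin names with both arms past the minimum, at 10 against 0 μM (left) and 100 against 0 μM (right) DEHP. The 3p arm lies higher in 9 of the 10 at 100 μM, and with another scaling all points of a panel move together. IDs of a shared profile repeat the same point, and the pairs of miR-297b and miR-466p are shown but not read as differences.

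The lower dose was compared with the control in the same way. Between 10 and 0 μM the miRNAs as a whole hardly differed, and the shift of the median of all miRNAs under other scalings was 0.06 or less. Over all 587 miRNAs, 0 (0%) were above a log2 ratio of 2 and 4 (0.681%) below -2, and 0 members were beyond 2 in either direction. At a log2 ratio of 1, 9 of all miRNAs (1.53%) were higher and 30 (5.11%) lower. Of the 37 members 0 were higher and 4 (10.8%, 3 profiles) lower, miR-466b-5p, miR-466c-5p, miR-466o-5p and miR-466p-5p. The last of these passed the minimum through its 0 μM value, so it is counted but not read as a difference. The median log2 ratio was -0.18 over the members and 0.02 over all miRNAs.

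The 4 members counted below -1 were all 5p arms of miR-466, but miR-466p-5p among them is not read as a difference. The most abundant of them, miR-466c-5p, had 66.8, 25.2 and 38.5 normalized counts at 0, 10 and 100 μM, and its log2 ratio at 10 against 0 μM was -1.39 (-2.02 to -0.82). The shared profile of miR-466b-5p and miR-466o-5p was 29.7, 11.1 and 25.6, with a log2 ratio of -1.38 (-2.38 to -0.53). miR-466p-5p had 21.0, 6.68 and 12.8 and a log2 ratio of -1.59 (-2.92 to -0.54). It passed the minimum through its 0 μM value, since the other values have a mean below 10, so its ratio is not read as a difference. In each of these profiles the 0 μM library was the highest, while the order of the other libraries depends on scaling: at 100 against 10 μM the log2 ratios of miR-466c-5p, miR-466b-5p and miR-466p-5p were 0.60, 1.17 and 0.89, but -0.91, -0.32 and -0.56 with total counts.

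Below the minimum no difference at 10 μM is read. There miR-466d-5p and miR-466n-5p shared 14, 2 and 5 counts, miR-466e-5p had 16, 5 and 6, and miR-466k 15, 5 and 5. The table lists only miRNAs with at least 10 counts at 0 μM, a cut that favours negative log2 ratios among miRNAs near it. Of all 40 miRNAs below the minimum, 33 had a negative log2 ratio at 10 against 0 μM, 13 (32.5%) were below -1 and 0 above 1. All 7 members among them had a negative log2 ratio, and 5 (71.4%) were below -1. These 5 include miR-669p-3p, a 3p arm of another number, with 14, 6 and 5 counts and a log2 ratio of -1.11 (-2.86 to 0.28). Past the minimum, not every 5p arm of miR-466 was lower. miR-466h-5p had a log2 ratio of -0.24 (-1.20 to 0.70) and miR-466i-5p one of 0.04 (-0.28 to 0.36). The 6 miR-466 3p members past the minimum had log2 ratios from 0.01 to 0.23. Past the minimum, miR-466b-5p, miR-466c-5p and miR-466o-5p stayed below -1 under each scaling, as did miR-466p-5p, which is not read.

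The single member higher at 10 μM with an interval above 0 was miR-669l-5p, with 29.7, 52.7 and 22.0 normalized counts and a log2 ratio of 0.81 (0.25 to 1.42). It was lower at 100 than at 10 μM, with a log2 ratio of -1.24 (-2.28 to -0.37). The 3p profile of miR-669a-3p and miR-669o-3p had a log2 ratio of -0.46 (-0.72 to -0.19) at 10 against 0 μM, and miR-467c-5p one of -0.41 (-0.66 to -0.17). Over all 587 miRNAs, 165 had an interval above 0 and 159 one below 0 at 10 against 0 μM, beside 1 and 10 of the 37 members. The 10 are IDs and hold fewer profiles. Shared among them are miR-466b-5p with miR-466o-5p, miR-467a-5p with miR-467b-5p, and miR-669a-3p with miR-669o-3p. The 10 also include miR-466p-5p, which is not read as a difference.

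The step between the doses was read last, and it shares the 100 μM library with the comparison of 100 and 0 μM. Over all 587 miRNAs, 72 (12.3%) were above a log2 ratio of 2 and 51 (8.69%) below -2, beside 0 and 1 of the 37 members. At a log2 ratio of 1, 173 of all miRNAs (29.5%) were higher and 145 (24.7%) lower, beside 12 members (32.4%, 6 profiles) higher and 3 (8.11%, 3 profiles) lower. The median over the members was 0.70 and that over all miRNAs -0.03. With total counts the median of all miRNAs shifted by -1.53 and that of the members was -0.79, and without the 10 most abundant miRNAs the values were -0.82 and -0.08.

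Past the minimum, the members highest at 100 against 10 μM were miR-467a-5p and miR-467b-5p, with a log2 ratio of 1.62 (1.53 to 1.70) that was 0.08 with total counts, where its interval spans 0, and miR-466d-3p with 1.36 (0.94 to 1.79). The 5p profile of miR-466b-5p and miR-466o-5p, low at 10 μM, had a log2 ratio of 1.17 (0.04 to 2.36). With total counts the ratio of miR-466d-3p was -0.17 and that of miR-466b-5p -0.32. The lowest members were miR-669b-5p with -4.25 (-9.91 to -2.04), miR-466i-5p with -1.53 (-2.24 to -0.90) and miR-669l-5p, and these were negative under each scaling. In miR-669 all 9 5p members had a negative log2 ratio at 100 against 10 μM, with an interval below 0 for 5 of them. All 3 members of 3p arms past the minimum were higher, except that all 3 were lower with total counts and 2 of them with library sizes without the 10 most abundant miRNAs.

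The share of each library in the family was small and lower at 100 μM. Over 1 row per ID it was 0.184% (95% interval 0.180% to 0.188%) at 0 μM, 0.166% (0.162% to 0.169%) at 10 μM and 0.125% (0.122% to 0.128%) at 100 μM. With each count profile taken once it was 0.117%, 0.107% and 0.0687%. These shares need no scaling, but they carry the weight of the most abundant miRNAs in the total. On the normalized scale the sum of the distinct profiles was 4329, 3855 and 7394, a log2 ratio of 0.77 at 100 against 0 μM, beside 1.54 for the sum over the profiles of all miRNAs. By number, the summed profiles of miR-467 were 2389, 2102 and 5465 normalized counts, and those of miR-669 were 1313, 1231 and 1004.

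Other groups of miRNAs gave a frame for these medians. At 100 against 0 μM the median log2 ratio was -0.12 for the X-linked germ-cell group around miR-465 and miR-743 (30 miRNAs past the minimum) and -0.02 for the imprinted Dlk1-Dio3 group (76). It was 0.93 for the miR-290 to miR-295 cluster (9) and 0.67 for the 75 miRNAs numbered 1000 or above. At 10 against 0 μM these medians were 0.01, 0.03, -0.18 and 0.03. The family median of 0.24 at 100 μM lay between those of these groups, and its value of -0.18 at 10 μM equalled that of the miR-290 to miR-295 cluster to this precision.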

How the data were processed

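The deposited values are raw counts, a whole number for each pair of mature miRNA and precursor. To make them the authors trimmed reads, aligned them to mouse with bowtie2 and ran miRDeep2 for counting. The submitters' processing notes name mm10 and DESeq2, and versions of these steps are not given in the sources used here. From the table, the row of highest total was kept per mature ID. Size factors came from DESeq2 1.42.0 in R 4.3.3, TMM and upper-quartile factors from edgeR 4.0.16, and intervals from scipy 1.17.1 in Python 3.11.15. A miRNA was counted beyond a log2 ratio of 2 or 1 at a mean normalized count of at least 10. Totals were 5064602 to 5952274 counts, and after division by the size factors 3 counts stand for 2.18, 2.23 and 5.50 normalized counts at 0, 10 and 100 μM. Intervals cover counting error only, since reads lack molecular identifiers. The script was tested on simulated counts.

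Named members are the 6 most abundant, the 3 highest and 3 lowest of each comparison whose interval excludes 0, members with 3 counts or fewer in a library, arm pairs of opposite sign, members whose rows differ, and members of shared profiles. Others were named after their values were seen. The members and lists were chosen with earlier results of these data known. Alternatives were other scalings, 1 normalized count added, summed rows, no minimum or a mean of 100, shared profiles counted once, a threshold of 1, and whole intervals beyond the threshold.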

Additional observations from a re-analysis of the deposited data

How the results depend on the processing

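No paired analysis was possible because each dose has 1 library, and there was no replicate to leave out. The ratios hold no variation between cultures, and with fewer than 10 counts in a library a member's interval spans more than 2 log2 units.

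The count of members beyond a log2 ratio of 2 at 100 against 0 μM, 1 by median of ratios, was 8 with total counts, 4 with library sizes without the 10 most abundant miRNAs, 0 at a mean of at least 100 and 16 at a threshold of 1. At 100 against 10 μM, also 1, it was 7, 3, 0 and 15 under the same changes, and 3 with summed rows or no minimum. At 10 against 0 μM the count of 0 became 2 with summed rows or no minimum and 4 at a threshold of 1. The median over members at 100 against 0 μM was -1.28 by total counts and -0.53 by library sizes lacking the 10 most abundant miRNAs, and at 100 against 10 μM it reversed to -0.79 and -0.0837. The median of 0.24 at 100 against 0 μM became 1.12 at a mean of at least 100, 0.0739 with shared profiles counted once, 0.0790 with summed rows and 0.10 with no minimum, so its size depends on the members counted. The median of 0.70 at 100 against 10 μM became 1.26, 0.49, 0.81 and 0.85 under these changes.

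With total counts, log2 ratios above 1 with an interval above 0 reversed at 100 against 0 μM for miR-467a-5p and miR-467b-5p (-0.0712), miR-466a-3p and miR-466e-3p (-0.24), miR-467a-3p and miR-467d-3p (-0.40), and miR-466b-3p, miR-466c-3p and miR-466p-3p (-0.22). miR-467e-3p, at 1.15 with an interval spanning 0, became -0.30. At 100 against 10 μM these 5 miR-466 3p arms stood at -0.27, miR-467a-3p and miR-467d-3p at -0.23, miR-466d-3p at -0.17, and miR-466b-5p and miR-466o-5p at -0.32. Leaving the 10 most abundant miRNAs out of the library sizes moved 22 of the 44 members at 100 against 0 μM and 22 at 100 against 10 μM. The cause was not tested. Adding 1 normalized count, TMM, upper-quartile factors, factors from miRNAs outside the family and summed rows moved the ratio of none of the 44 members beyond its counting interval. Members outside the naming rule (12) were added to these runs after their values were seen.

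The share of the library in the family was 1.35%, 1.18% and 1.11% at 0, 10 and 100 μM both over summed rows and over all rows of the table, and 0.117%, 0.107% and 0.0687% with shared profiles counted once. It was lowest at 100 μM each time.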
